A study of Mus musculus with 12 samples.

Results

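The genes of the extracellular matrix and its remodelling were examined in primary mouse hepatocytes labelled wild type or Hnf4a knockout that received MJ041 or its vehicle. The set holds 37 genes chosen by symbol, which cover collagens, laminins, basement membrane linkers, glycoproteins, small proteoglycans, crosslinking enzymes, proteases, their inhibitors and 2 TGF-beta ligands. All 37 were found among the 55414 genes of the count table, and 35 of them passed the filter on low counts that 14919 genes passed. HNF4A is a nuclear receptor on which the mature hepatocyte programme depends, and MJ041 is a compound for which only the code name is given. The 4 groups were Hnf4a knockout (KO) cells with MJ041, KO cells with DMSO vehicle, wild-type (WT) cells with MJ041, and WT cells with DMSO vehicle, with 3 libraries each. The labels give neither the dose nor the duration of treatment, nor the age and strain of the mice, nor how the gene was deleted and which part of it is missing. They do not say that the replicates came from separate animals, so p-values measure the spread between these samples, which may be technical.

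The extracellular matrix is the protein network that surrounds cells and anchors them. In a basement membrane, laminins assemble from an alpha, a beta and a gamma chain, type IV collagen forms a second network, and nidogen and perlecan join the networks. Healthy hepatocytes face the sinusoid across a loose matrix without a continuous basement membrane, and they secrete matrix proteins such as vitronectin and fibronectin into the blood. Fibrillar collagen in the liver comes mainly from stellate cells and portal fibroblasts, whereas matrix turnover depends on metalloproteinases, their tissue inhibitors (TIMPs) and TGF-beta signalling.

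The libraries held between 16740761 and 17902832 counts. Levels are given as CPM, the share of a library's counts that a gene takes, on a common scale after TMM correction, so each level is relative to the other transcripts of its library. Hnf4a itself was at 61.1, 67.8 and 66.4 CPM in KO vehicle libraries, against 121, 137 and 113 CPM in WT vehicle libraries. The RNA was lower but present in the KO libraries, so it does not by itself establish the deletion. The log2 fold change was -0.92 ± 0.10 (SE, n = 3; adjusted p = 8.86e-06). WT MJ041 libraries 1 and 2 had the lowest summed levels of stellate, endothelial and Kupffer cell markers of the 12 libraries. The summed CPM of 17 Kupffer cell and macrophage markers was 197, 245 and 414 in the WT MJ041 libraries, against 338, 273 and 554 in the WT vehicle libraries. Markers of cholangiocytes went the other way, at 266.2, 355 and 240.5 CPM with MJ041, against 163.2, 186.3 and 197 CPM with vehicle. Portal fibroblast and mesothelial markers summed to 10.11 to 11.12 CPM with MJ041, against 6.595 to 8.227 CPM with vehicle. Results that rest on the WT MJ041 group are also given below without WT MJ041 libraries 1 and 2. That leaves 1 WT MJ041 library, whose spread is then assumed to be like that of the other groups.

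With vehicle, 19 of the 35 tested matrix genes differed between KO and WT cells at an adjusted p below 0.05, with 10 higher and 9 lower in KO. That share is 54.3%, beside 54.5% of all tested genes, of which 27.5% were higher and 26.9% lower, so the count of matrix genes was near the background. The median log2 fold change was -0.06 for the matrix genes and -0.00204 for all tested genes. Of the 35 tested matrix genes, which were chosen with earlier results of these data known, 12 passed this limit and differed at least 2-fold. Of all tested genes, 15.2% passed both limits. The differences ran in both directions: laminin chains, basement membrane linkers, basement membrane collagens and glycoproteins each held genes that rose and genes that fell.

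**Figure D1:**
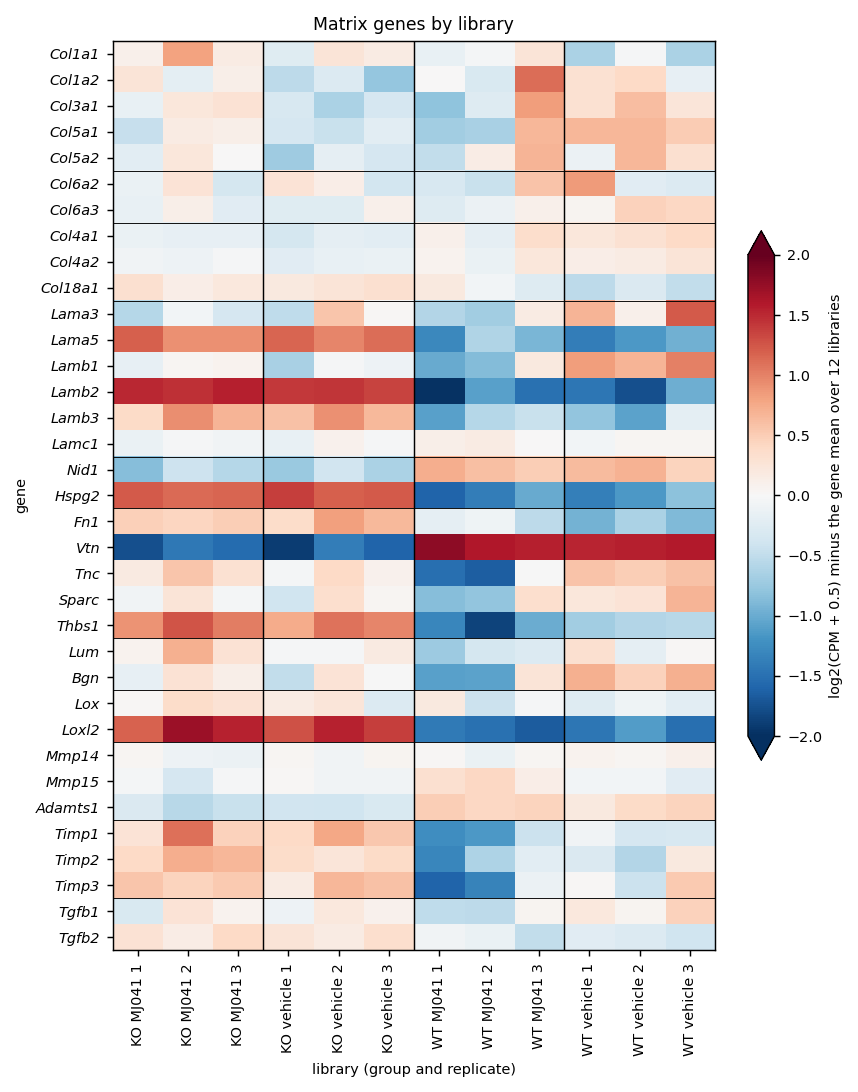
Levels of the 35 tested matrix genes (rows, grouped by role) in the 12 libraries (columns), as log2(CPM + 0.5) minus the gene's mean over all libraries. Vtn and Nid1 are low in all 6 KO libraries and Hspg2, Lama5, Lamb2 and Loxl2 are high in them, while Tnc, Bgn and Timp3 are low in WT MJ041 libraries 1 and 2.

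The promoters of 5 genes with large changes are shown because these genes moved in opposite directions in KO cells. Each is the 250 bases before the annotated start, from RefSeq on GRCm38.p6, written along the gene's own strand from 5′ to 3′. Vtn lies on chr11:78498870-78499119 (plus strand), Nid1 on chr13:13437352-13437601 (plus), Hspg2 on chr4:137468553-137468802 (plus), Lama5 on chr2:180225860-180226109 (minus) and Lamb2 on chr9:108479612-108479861 (plus). Their Ensembl identifiers are ENSMUSG00000017344 (Vtn), ENSMUSG00000005397 (Nid1), ENSMUSG00000028763 (Hspg2), ENSMUSG00000015647 (Lama5) and ENSMUSG00000052911 (Lamb2). Capitals mark the GC box GGGCGG or its complement CCGCCC, a short motif of many promoters.
Vtn: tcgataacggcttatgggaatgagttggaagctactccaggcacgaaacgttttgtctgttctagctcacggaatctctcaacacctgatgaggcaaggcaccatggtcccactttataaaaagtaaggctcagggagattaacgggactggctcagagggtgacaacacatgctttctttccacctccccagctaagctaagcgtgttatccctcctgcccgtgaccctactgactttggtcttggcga
Nid1: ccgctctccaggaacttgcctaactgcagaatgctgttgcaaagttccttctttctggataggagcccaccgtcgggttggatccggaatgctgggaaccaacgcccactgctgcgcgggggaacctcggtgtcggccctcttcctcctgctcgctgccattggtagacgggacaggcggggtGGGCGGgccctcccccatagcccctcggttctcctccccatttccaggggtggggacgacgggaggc
Hspg2: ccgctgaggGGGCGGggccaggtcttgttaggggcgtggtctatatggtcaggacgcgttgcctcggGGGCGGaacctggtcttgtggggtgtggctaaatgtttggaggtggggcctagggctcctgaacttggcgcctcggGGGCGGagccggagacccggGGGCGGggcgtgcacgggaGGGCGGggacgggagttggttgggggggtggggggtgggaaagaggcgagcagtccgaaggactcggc
Lama5: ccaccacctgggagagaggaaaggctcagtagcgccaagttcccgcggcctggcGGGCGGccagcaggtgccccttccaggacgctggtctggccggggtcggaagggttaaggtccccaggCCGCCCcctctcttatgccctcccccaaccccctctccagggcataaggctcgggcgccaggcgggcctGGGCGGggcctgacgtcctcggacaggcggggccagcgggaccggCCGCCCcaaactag
Lamb2: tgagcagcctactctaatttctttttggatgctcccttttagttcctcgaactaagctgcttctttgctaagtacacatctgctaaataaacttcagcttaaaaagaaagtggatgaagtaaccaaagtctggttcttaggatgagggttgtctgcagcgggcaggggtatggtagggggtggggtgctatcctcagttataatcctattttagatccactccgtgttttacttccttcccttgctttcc
The table held 27 of the 37 genes with 31 start sites. Col1a1, Col5a2, Lama3, Lamc1, Fn1, Thbs1, Lum, Lox, Loxl2 and Mmp2 were not matched. Searched on both strands, the GC box was found in 20 of the 31 windows, against 32.7% of 32851 windows of the same length. It was present 5 times in the Hspg2 window, 4 times in that of Lama5 and once in that of Nid1, and these letters were not in the windows of Vtn and Lamb2. The HNF4-type core CAAAGTCCA was in 0 of the 31 windows and in 0.384% of all, and the related CAAAGGTCA was in 0 of the 31 and in 0.426% of all. The AP-1 motif TGACTCA, searched on both strands as TGACTCA and TGAGTCA, was in 1 of the 31 windows and in 4.46% of all. The TEAD motif ACATTCC was in 2 of the 31 and in 3.25% of all. These matches describe letters in a short window.

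Vtn encodes vitronectin, an adhesive glycoprotein that the liver secretes into plasma. It was at 53.6, 77.0 and 65.7 CPM in KO vehicle libraries, against 580, 588 and 607 CPM in WT vehicle libraries. The groups were far apart, and the highest KO library was below every WT library. The log2 fold change was -3.18 ± 0.12 (SE, n = 3; adjusted p = 6.7e-10), the smallest adjusted p among the matrix genes. Fn1 encodes fibronectin, which cells bind through integrins and which is also a plasma protein. Its level was 2234.5, 3043.2 and 2711.6 CPM in KO vehicle libraries, against 896, 1115.3 and 940 CPM in WT vehicle libraries. Every KO library was above every WT library, and the log2 fold change was 1.44 ± 0.13 (SE, n = 3; adjusted p = 1.5e-06).

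Fn1 and Vtn thus differed in opposite directions, which changed their order per unit length. On the scale of CPM per kb of exon length (GENCODE vM21 on GRCm38), Fn1 was at 228 ± 34.8 in KO vehicle libraries and 84.2 ± 9.93 in WT vehicle libraries (SD, n = 3 each). Vtn was at 32.2 ± 5.76 CPM per kb in KO and 292 ± 7.03 in WT. Vtn held 6.01% of the summed per-length level of the matrix genes in KO vehicle cells and 45.9% in WT vehicle cells, and Fn1 held 42.5% in KO and 13.2% in WT. The ratio of Fn1 to Vtn per length was 7.24, 6.87 and 7.17 in KO vehicle libraries, against 0.269, 0.329 and 0.269 in WT vehicle libraries. In KO vehicle cells the order after Fn1 was Thbs1, Col18a1, Nid1 and Vtn; the libraries of Thbs1 and Col18a1 overlapped, as did those of Nid1 and Vtn. In WT vehicle cells Vtn was followed by Fn1, Nid1 and Col18a1, with overlapping libraries for Fn1 and Nid1.

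Thbs1 encodes thrombospondin-1, a glycoprotein that can activate latent TGF-beta. It was at 233, 294 and 274 CPM in KO vehicle libraries, against 85.1, 92.0 and 94.5 CPM in WT vehicle libraries. All KO libraries lay above the WT libraries, with a log2 fold change of 1.56 ± 0.17 (SE, n = 3; adjusted p = 5.4e-06). The other glycoproteins did not pass the test, which is edgeR's wherever no other tool is named. Tnc encodes tenascin C, a matrix protein of wounds and inflammation. It was at 15.6, 21.3 and 17.1 CPM in KO vehicle libraries, against 24.0, 22.7 and 24.5 CPM in WT vehicle libraries, without overlap but with a log2 fold change of -0.40 ± 0.31 (SE, n = 3; adjusted p = 0.297). It passed in a fit of only the groups compared (adjusted p = 0.0155). Sparc, a collagen-binding secreted protein, was at 26.2, 44.1 and 35.7 CPM in KO and at 40.7, 42.2 and 56.1 CPM in WT, and the groups overlapped.

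**Figure D2:**
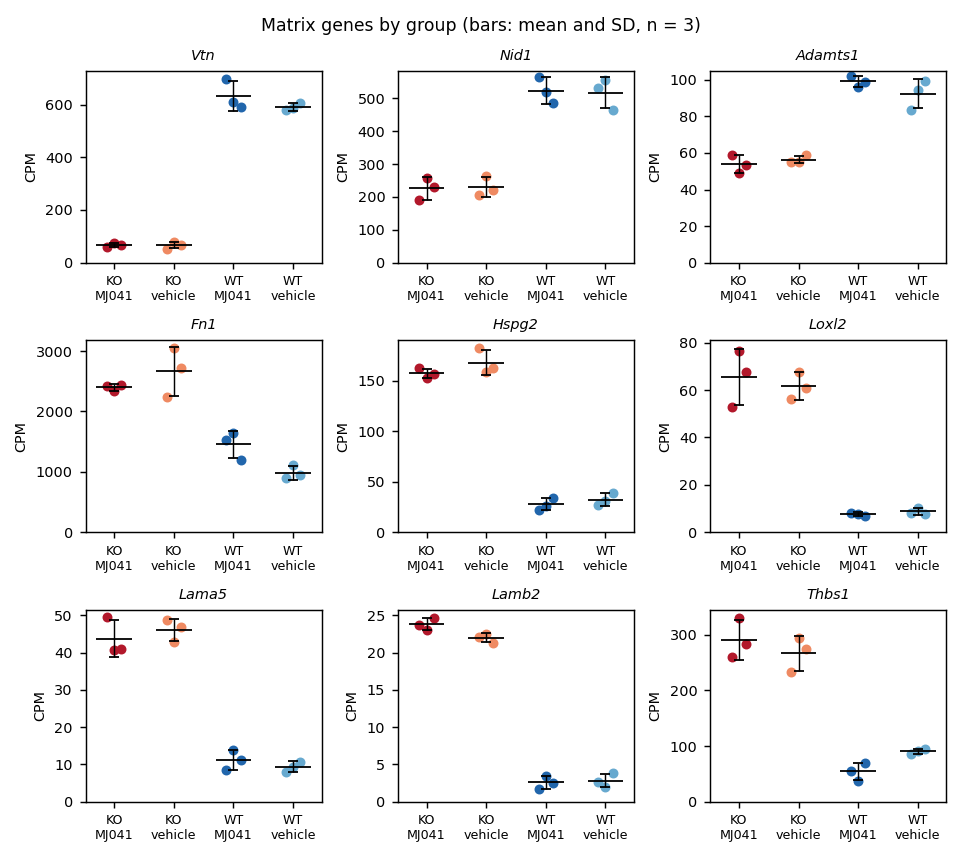
CPM of 9 matrix genes in the 4 groups; points are libraries, and the horizontal line and bar are the mean and SD of 3 libraries. For Vtn, Nid1 and Adamts1 the KO libraries lie below all WT libraries, and for the other 6 genes they lie above.

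Among basement membrane genes, the chains of laminin differed most from one another. Lamb2 (laminin beta 2 chain) was at 22.2, 22.5 and 21.3 CPM in KO vehicle libraries, against 2.62, 2.03 and 3.81 CPM in WT vehicle libraries. The KO libraries were close together and well above WT, with a log2 fold change of 2.95 ± 0.21 (SE, n = 3; adjusted p = 1.8e-07). Lama5 (the alpha 5 chain) was at 48.6, 42.7 and 46.7 CPM in KO, against 7.85, 9.37 and 10.8 CPM in WT. It had a log2 fold change of 2.30 ± 0.15 (SE, n = 3; adjusted p = 1.2e-07), without overlap of the groups. Lamb3 (the beta 3 chain of an epithelial laminin) was at 26.6, 33.6 and 27.7 CPM in KO, against 9.95, 8.12 and 15.3 CPM in WT, and its log2 fold change was 1.39 ± 0.22 (SE, n = 3; adjusted p = 1.6e-04). Lamb1 (the beta 1 chain) was at 1.71, 2.91 and 2.73 CPM in KO vehicle libraries, against 5.69, 5.07 and 6.46 CPM in WT vehicle libraries. Here the KO libraries were the lower ones, and the log2 fold change was -1.23 ± 0.32 (SE, n = 3; adjusted p = 5.3e-03). Lama3 and Lamc1 did not pass. Lama3, the alpha 3 chain that pairs with the beta 3 chain, was between 1.2 and 3.02 CPM in KO vehicle libraries and between 2.09 and 5.14 CPM in WT vehicle libraries. Lamc1, the gamma chain that many laminins share, was between 154 and 180 CPM in KO vehicle libraries and between 165 and 176 CPM in WT vehicle libraries.

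Because the beta chains moved in opposite directions, their ratio per length separated the genotypes. Lamb2 over Lamb1 was 21.1, 12.6 and 12.7 in KO vehicle libraries, against 0.75, 0.652 and 0.962 in WT vehicle libraries. The ratio was above 1 in every KO vehicle library and below 1 in every WT vehicle library. Lama5 over Lama3 was 38.2, 13.3 and 22.6 in KO, against 2.21, 4.23 and 1.98 in WT.

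**Figure D3:**
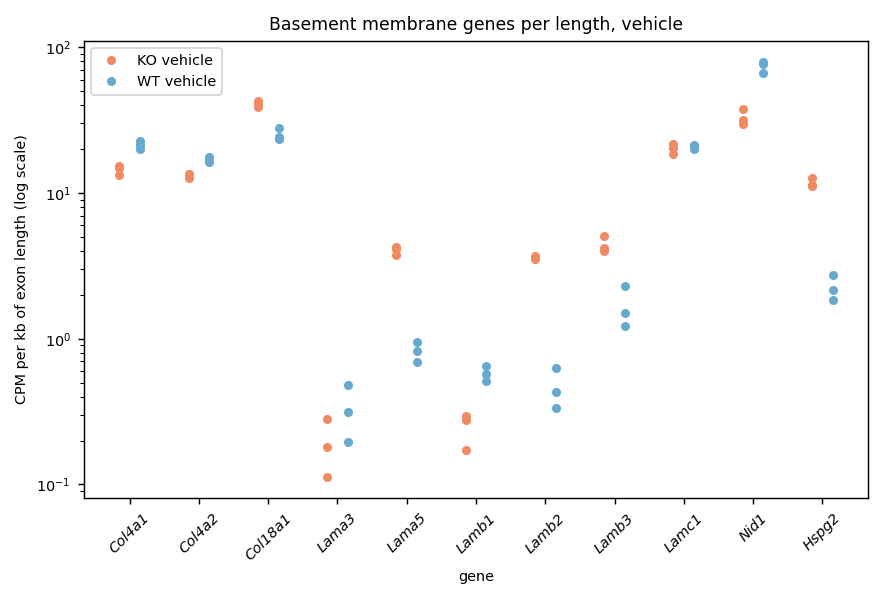
CPM per kb of exon length, on a log axis, of 11 basement membrane genes in KO vehicle and WT vehicle libraries; each point is a library. Lama5, Lamb2, Lamb3 and Hspg2 are higher in all 3 KO libraries, Nid1 and Lamb1 are lower, and Lamc1 overlaps between genotypes.

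The proteins that link laminin to type IV collagen moved in opposite directions. Hspg2 encodes perlecan, a heparan sulphate proteoglycan of basement membranes. It was at 182, 159 and 163 CPM in KO vehicle libraries, against 26.6, 31.1 and 39.2 CPM in WT vehicle libraries, with a log2 fold change of 2.38 ± 0.14 (SE, n = 3; adjusted p = 4.6e-08). Nid1 encodes nidogen-1, which binds laminin and type IV collagen. Its level was 205, 263 and 221 CPM in KO, against 532, 554 and 465 CPM in WT, with a log2 fold change of -1.17 ± 0.12 (SE, n = 3; adjusted p = 3.5e-06). For both genes the groups did not overlap. The ratio of Hspg2 to Nid1 per length was 0.43, 0.293 and 0.358 in KO vehicle libraries, against 0.0242, 0.0272 and 0.0409 in WT vehicle libraries.

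The basement membrane collagens of the set differed less. Col18a1, which encodes a heparan sulphate-bearing collagen and the precursor of endostatin, was at 272, 285 and 298 CPM in KO vehicle libraries, against 166, 195 and 170.1 CPM in WT vehicle libraries. It rose, with a log2 fold change of 0.69 ± 0.10 (SE, n = 3; adjusted p = 7.6e-05). Both type IV collagen chains of the set fell. Col4a5, a type IV chain outside the set that is given below, was higher in KO. Col4a1 was at 99.7, 114 and 110.4 CPM in KO, against 150.2, 159 and 170 CPM in WT (log2 fold change -0.56 ± 0.10, SE, n = 3; adjusted p = 4.8e-04). Col4a2 was at 83.7, 88.8 and 89.4 CPM in KO, against 108, 111 and 117 CPM in WT (log2 fold change -0.36 ± 0.08, SE, n = 3; adjusted p = 1.4e-03). In Col18a1, Col4a1 and Col4a2 no KO library overlapped the WT libraries. Col4a1 and Col4a2 lie head to head and share 22 exonic bases. The ratio of Col4a1 to Col4a2 per length was between 1.06 and 1.13 in KO vehicle libraries and between 1.24 and 1.28 in WT vehicle libraries.

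The interstitial collagens were low in all groups, and within this comparison their calls were lost most often among the alternatives. Col3a1, Col5a1 and Col5a2 fell in KO cells, with log2 fold changes of -1.29 ± 0.51, -1.10 ± 0.37 and -0.87 ± 0.34 (SE, n = 3; adjusted p = 0.048, 0.022 and 0.047). Col3a1 rested on 11, 7 and 11 counts in KO vehicle libraries, against 22, 28 and 21 counts in WT vehicle libraries. Col5a1, a chain of a collagen that nucleates fibrils, was at 2.06, 1.86 and 2.29 CPM in KO, against 4.61, 4.6 and 4.09 CPM in WT, and Col5a2, its partner chain, was at 1.26, 2.03 and 1.78 CPM in KO, against 2.16, 4.06 and 3.09 CPM in WT. For these 3 genes every KO vehicle library was below every WT vehicle library. The call of Col3a1 was lost without any 1 of the vehicle libraries (adjusted p between 0.0606 and 0.131), and without KO MJ041 library 2 (0.0542) or 3 (0.0573), and with DESeq2 (0.053). The call of Col5a1 was lost without KO vehicle library 1 (adjusted p = 0.0526) or 2 (0.0643) or WT vehicle library 1 (0.0517). That of Col5a2 was lost without any 1 of the KO vehicle libraries, WT vehicle library 2 or 3, KO MJ041 library 3 or WT MJ041 library 2, with adjusted p between 0.0522 and 0.159, and with limma voom (0.0615). Col1a1 and Col1a2, the chains of type I collagen, did not pass, at log2 fold changes of 0.58 and -0.94, and neither did the beaded filament chains Col6a2 and Col6a3, at -0.37 and -0.66. For Col1a2 the groups did not overlap. It passed in a fit of only the groups compared (adjusted p = 0.0197) but not with DESeq2 or limma voom. Col6a1 and Mmp2 (a secreted gelatinase) were not tested. Col6a1 had 18 counts in all KO vehicle libraries and 31 in all WT vehicle libraries, and Mmp2 had 18 in KO and 17 in WT.

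Of the enzymes that crosslink collagen, Loxl2 rose and Lox did not pass. Loxl2 encodes a lysyl oxidase that acts on type IV collagen. It was at 56.3, 67.8 and 61.0 CPM in KO vehicle libraries, against 8.13, 10.3 and 7.73 CPM in WT vehicle libraries. The groups were far apart, with a log2 fold change of 2.82 ± 0.15 (SE, n = 3; adjusted p = 1.1e-08). Lox, the classical lysyl oxidase of fibrillar collagen, was between 0.669 and 1.16 CPM in KO vehicle libraries and between 0.682 and 0.836 CPM in WT vehicle libraries. Lum and Bgn, small leucine-rich proteoglycans that bind collagen fibrils, did not pass either, with log2 fold changes of -0.05 and -0.71. Lum was below 1 CPM in all vehicle libraries. For Bgn the groups did not overlap, and it passed with limma voom (log2 fold change -0.741, adjusted p = 0.0265) and in a fit of only the groups compared (adjusted p = 0.00968).

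Among proteases, Adamts1 (a secreted metalloproteinase that cleaves large proteoglycans) fell. It was at 55.2, 55.1 and 58.8 CPM in KO vehicle libraries, against 83.5, 94.6 and 99.3 CPM in WT vehicle libraries, with a log2 fold change of -0.71 ± 0.08 (SE, n = 3; adjusted p = 5.3e-06). Mmp14, a membrane-bound collagenase that activates the proform of MMP2, was between 102 and 111 CPM in KO and between 109.6 and 115 CPM in WT, and Mmp15, a related membrane metalloproteinase, was between 18.7 and 20.1 CPM in KO and between 16.8 and 18.9 CPM in WT. Neither passed. Of the inhibitors, Timp1 rose, at 8.0, 10.6 and 8.92 CPM in KO, against 5.69, 4.6 and 4.69 CPM in WT (log2 fold change 0.88 ± 0.26, SE, n = 3; adjusted p = 0.012). This call was lost without WT vehicle library 2 (adjusted p = 0.0536) or 3 (0.051). Timp2 was between 3.66 and 4.07 CPM in KO and between 1.85 and 3.53 CPM in WT, Timp3, an inhibitor bound to the matrix, was between 31.4 and 44.9 CPM in KO and between 20.8 and 40.6 CPM in WT, and neither passed. Tgfb2 rose, at 47.8, 44.8 and 50.6 CPM in KO, against 34.3, 33.1 and 30.3 CPM in WT (log2 fold change 0.55 ± 0.10, SE, n = 3; adjusted p = 6.3e-04), and Tgfb1 had a log2 fold change of -0.19 without passing.

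**Figure D4:**
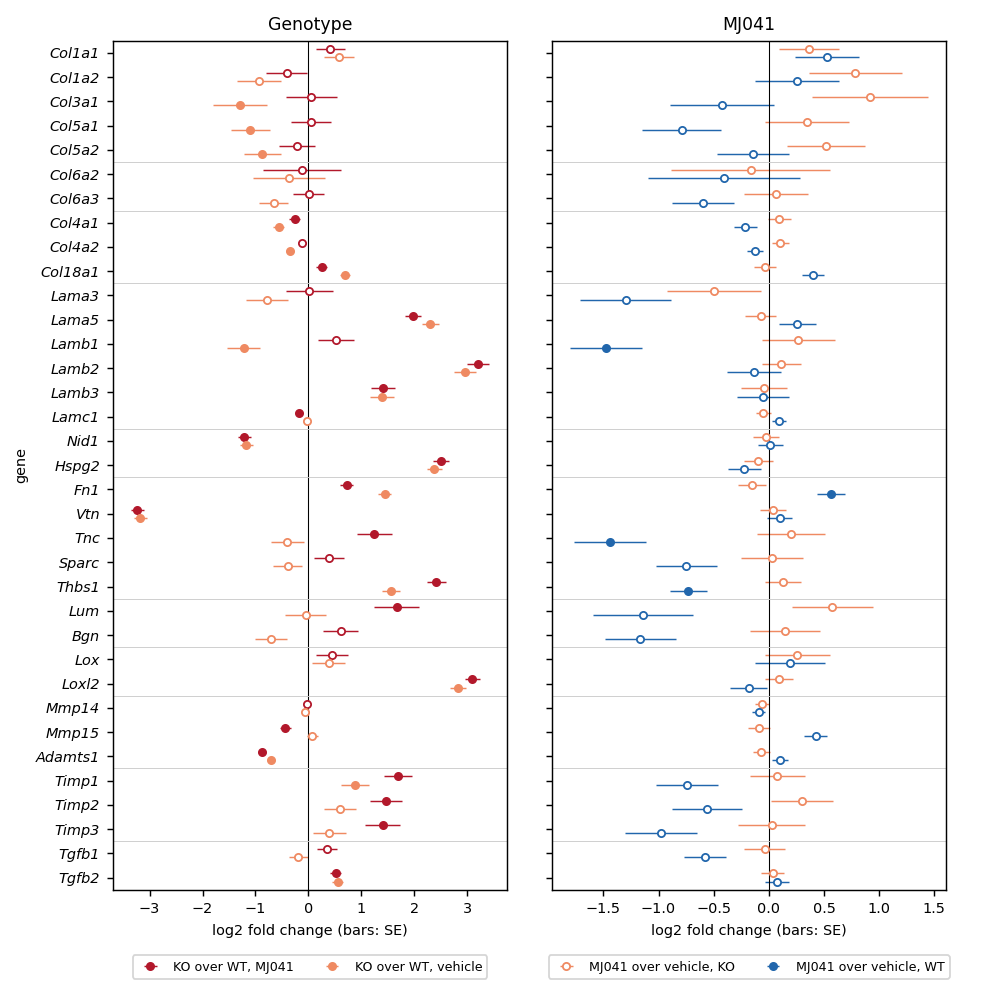
Log2 fold changes with their SE for the 35 tested matrix genes; the left panel holds KO over WT and the right panel MJ041 over vehicle, and filled points have an adjusted p below 0.05. Vtn lies near -3.2 in both genotype comparisons, Lamb2, Loxl2 and Hspg2 lie above 2 in both, and in the right panel 4 points are filled, all in WT cells.

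Other genes of the pathway, from lists written with earlier results of these data known, moved in both directions. The shares called were 54.2% of the collagen maturation enzymes, 52.5% of other structural genes, 54.5% of other proteases and inhibitors and 60.9% of the TGF-beta pathway, near the 54.5% of all tested genes. Of 24 tested collagen maturation enzymes, 9 rose and 4 fell. Pcolce, which enhances procollagen cleavage, averaged 6.10 ± 0.33 CPM in KO vehicle libraries and 0.74 ± 0.14 CPM in WT vehicle libraries (SD, n = 3 each), and Plod1 and Tgm2, a lysyl hydroxylase and a transglutaminase, rose by 1.05 and 1.08 on the log2 scale. Of 40 other structural genes, 12 rose and 9 fell. Among them Col4a5, a type IV collagen chain, averaged 51.2 ± 7.44 CPM in KO and 5.93 ± 1.48 CPM in WT, Col16a1 rose by 3.80 on the log2 scale, and Agrn (agrin, a basement membrane proteoglycan) rose by 0.96. Of 33 other proteases and inhibitors, 9 rose and 9 fell; Plat, the tissue plasminogen activator, averaged 249 ± 26.2 CPM in KO and 43.4 ± 1.38 CPM in WT, and the metalloproteinases Mmp19 and Adam15 rose by 1.61 and 0.99 on the log2 scale. Of 23 genes of the TGF-beta pathway, 3 rose and 11 fell, among them Ltbp3, which binds latent TGF-beta and rose by 3.60, and the SMAD co-repressors Ski and Skil, which fell by 0.90 and 0.68.

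Markers of other liver cells differed between the genotypes beside these genes. The summed CPM of 11 cholangiocyte markers ranged from 427 to 456 in KO vehicle libraries, against 163 to 197 in WT vehicle libraries, and 7 of 9 tested markers rose while 1 fell. Bicc1 and Cldn4 were the most abundant of them, with log2 fold changes of 2.66 and 1.30. The sum of 9 portal fibroblast and mesothelial markers ranged from 18.6 to 21.4 CPM in KO, against 6.6 to 8.23 CPM in WT, where Entpd2 rose by 1.84 and Cd34 fell by 1.44. The sum of 16 stellate cell markers ranged from 155 to 208 CPM in KO, against 136 to 158 CPM in WT, and 4 of 10 tested markers rose and 1 fell; Lrat was at 0 to 5 counts and Ngfr at 0 to 3 counts in a library, and the most abundant, Ecm1 and Cxcl12, did not pass. The 18 endothelial markers summed to 256 to 381 CPM in KO, against 268 to 416 CPM in WT, with 1 that rose and 1 that fell; Flt4 rose by 0.25 and Stab1 did not pass. Of 16 tested Kupffer cell markers 2 rose and 1 fell; Mpeg1 rose by 1.10, Cd68 fell by 0.66, and the sums were 490 to 545 CPM in KO, against 273 to 554 CPM in WT. Of 12 hepatocyte markers 7 fell, among them the targeted gene Hnf4a itself, and 1 rose. They summed to 26157.9 to 30647.5 CPM in KO, against 57018.0 to 62693.2 CPM in WT; Alb and Trf fell by 1.25 and 1.13 on the log2 scale, as for the other single markers here. With the mean log2 level of the stellate, endothelial and Kupffer markers as a covariate, 27 matrix genes were called, 12 higher and 15 lower in KO, among them all 19 named above, beside 59.5% of all tested genes in that fit. The part of the cholangiocyte, portal and hepatocyte markers in the matrix results was not tested, and in bulk libraries fewer cells of a type and less RNA per cell cannot be told apart.

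With MJ041 present in both genotypes, 20 of the 35 genes differed between KO and WT cells, 14 higher and 6 lower in KO. This is 57.1%, against 54.4% of all tested genes, of which 26.8% were higher and 27.6% lower. Of the 35 genes, 13 passed and differed at least 2-fold, where 15.5% of all tested genes passed both limits. This comparison uses other libraries than the vehicle comparison, although the fit shares its estimate of the spread, and 10 genes were higher and 4 lower in KO in both. The labels do not state whether MJ041 and vehicle libraries share cell preparations, so the comparisons may not be separate repeats. Vtn was at 59.1, 74.0 and 68.7 CPM in KO MJ041 libraries, against 697, 608 and 593 CPM in WT MJ041 libraries, a log2 fold change of -3.23 ± 0.12 (SE, n = 3; adjusted p = 5.58e-10). Loxl2 was at 52.9, 76.3 and 67.9 CPM in KO, against 8.28, 7.82 and 6.92 CPM in WT (log2 fold change 3.10 ± 0.15, SE, n = 3; adjusted p = 5.18e-09). Hspg2 was at 162, 153 and 157 CPM in KO, against 22.4, 26.2 and 34.3 CPM in WT (log2 fold change 2.51 ± 0.15, SE, n = 3; adjusted p = 3.25e-08). For Vtn, Loxl2 and Hspg2 the genotypes did not overlap. Lamb2 was at 23.7, 23.1 and 24.6 CPM in KO, against 1.67, 3.51 and 2.54 CPM in WT (log2 fold change 3.21 ± 0.21, SE, n = 3; adjusted p = 9.95e-08). Nid1 was at 190.0, 258 and 230 CPM in KO, against 565, 518 and 484 CPM in WT, and fell by 1.21 on the log2 scale. Adamts1 was at 59.0, 49.1 and 53.2 CPM in KO, against 102, 96.4 and 98.8 CPM in WT, and fell by 0.88. Lama5, Lamb3, Thbs1, Fn1, Timp1 and Tgfb2 also rose, with log2 fold changes of 1.97, 1.40, 2.42, 0.72, 1.69 and 0.51. Against the 1 WT MJ041 library left without libraries 1 and 2, these 6 genes had log2 fold changes of 1.968 for Lama5, 1.16 for Lamb3, 2.058 for Thbs1, 0.988 for Fn1, 1.156 for Timp1 and 0.784 for Tgfb2. In the same fit the values were -3.145 for Vtn, 3.24 for Loxl2, 2.19 for Hspg2, 3.216 for Lamb2, -1.107 for Nid1 and -0.885 for Adamts1. All 12 remained called, with adjusted p of at most 0.017, beside 40.3% of all tested genes in that fit. The ratio of Lamb2 to Lamb1 per length was 14.9, 12.2 and 12.7 in KO MJ041 libraries, against 2.2, 4.04 and 1.19 in WT MJ041 libraries.

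A further 6 genes passed here and not with vehicle: Tnc, Lum, Timp2 and Timp3 were higher in KO, and Lamc1 and Mmp15 were lower. Whether the genotype difference itself changed with MJ041 is the interaction test, which none of them passed. Tnc was at 18.3, 23.9 and 19.9 CPM in KO MJ041 libraries, against 5.32, 4.80 and 16.0 CPM in WT MJ041 libraries, of which libraries 1 and 2 were the low ones. Its log2 fold change of 1.24 ± 0.33 (SE, n = 3; adjusted p = 6.3e-03) was 0.363 (adjusted p = 0.14) without those libraries, against the 1 library left. Timp3 was at 41.7, 38.5 and 40.7 CPM in KO, against 8.96, 10.8 and 25.8 CPM in WT, with a log2 fold change of 1.40 ± 0.32 (SE, n = 3; adjusted p = 2.54e-03), and of 0.637 (adjusted p = 0.104) without those libraries. Without them the log2 fold change of Lum was 1.241 (adjusted p = 0.113; 1.67 with them), that of Mmp15 was -0.28 (adjusted p = 0.131; -0.44 with them) and that of Lamc1 was -0.091 (adjusted p = 0.44). With 1 library left, a lost call says little about a gene. Lamc1, with a log2 fold change of -0.18 in all libraries, lost its call without KO MJ041 library 1 (adjusted p = 0.073) or WT MJ041 library 1 (0.0727) or 2 (0.0694) as well. Timp2 was at 4.12, 5.32 and 5.09 CPM in KO, against 0.927, 1.79 and 2.54 CPM in WT (log2 fold change 1.46 ± 0.30, SE, n = 3; adjusted p = 1.26e-03), and was called in all 21 alternatives, with log2 fold changes between 0.867 and 1.826 and an adjusted p of 0.0435 without WT MJ041 libraries 1 and 2. Lum exceeded the filter's level in all 3 KO MJ041 libraries, 1 KO vehicle library, 0 WT MJ041 libraries and 1 WT vehicle library. It thus entered the test only through the group where it was called higher, so passing the filter adds nothing to its call. Its counts were 10, 21 and 13 in KO MJ041 libraries, against 2, 5 and 6 in WT MJ041 libraries. Against the 1 library left without WT MJ041 libraries 1 and 2, Col4a1 and Col18a1 had log2 fold changes of -0.508 and 0.472. Without WT MJ041 library 3 instead, the values were -0.124 and 0.141. The calls of Col4a1 and Col18a1, with log2 fold changes of -0.26 and 0.25 in all libraries, were close to the threshold. That of Col4a1 was lost without any 1 of the KO MJ041 or KO vehicle libraries, WT MJ041 library 1 or 3 or WT vehicle library 1 or 2, with adjusted p between 0.0503 and 0.229, and also with limma voom (0.0641), DESeq2 size factors (0.0527), the stricter filter (0.0598) and only the groups compared (0.0969). That of Col18a1 was lost without KO MJ041 library 1 or 3, any 1 of the KO vehicle libraries, WT MJ041 library 2 or 3 or WT vehicle library 1 or 3, with adjusted p between 0.0539 and 0.205, and also with a replicate block (0.051) and only the groups compared (0.0808).

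In WT cells, 4 of the 35 genes differed between MJ041 and vehicle, Fn1 higher and Lamb1, Tnc and Thbs1 lower, which is 11.4% beside 2.21% of all tested genes, of which 1.19% were higher and 1.02% lower. At an unadjusted p below 0.05 there were 14 of the 35, beside 21.6% of all tested genes. Fn1 was at 1519.9, 1635.8 and 1202.8 CPM in WT MJ041 libraries, against 896, 1115.3 and 940 CPM in WT vehicle libraries, a log2 fold change of 0.56 ± 0.13 (SE, n = 3; adjusted p = 0.045). Thbs1 was at 55.9, 38.0 and 69.7 CPM with MJ041, against 85.1, 92.0 and 94.5 CPM with vehicle (log2 fold change -0.73 ± 0.17, SE, n = 3; adjusted p = 0.045). For both genes the groups did not overlap. Lamb1 was at 1.24, 1.42 and 3.49 CPM with MJ041, against 5.69, 5.07 and 6.46 CPM with vehicle (log2 fold change -1.48 ± 0.32, SE, n = 3; adjusted p = 0.042). Tnc was at 5.32, 4.80 and 16.0 CPM with MJ041, against 24.0, 22.7 and 24.5 CPM with vehicle (log2 fold change -1.44 ± 0.33, SE, n = 3; adjusted p = 0.045). For Fn1, Lamb1, Tnc and Thbs1, WT MJ041 library 3 was the closest of the MJ041 libraries to vehicle.

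These 4 calls were close to the threshold, and leaving out libraries of other groups ended them too. Without any 1 KO library, Lamb1 had log2 fold changes of -1.499 or -1.479 and an adjusted p between 0.054 and 0.0836. WT MJ041 libraries 1 and 2, which were low in Kupffer cell markers, were also at 94.8 and 102 CPM for the sum of stellate markers and at 179 and 194 CPM for that of endothelial markers, against 136 and 316 CPM in WT MJ041 library 3. In the WT vehicle libraries the same sums ranged from 136 to 158 and from 268 to 416 CPM. Without both libraries the WT MJ041 group holds 1 library, and 0 of all tested genes passed, so the loss of these 4 calls carries no information particular to them. The log2 fold changes were then -0.716 for Lamb1, 0.292 for Fn1, -0.564 for Tnc and -0.376 for Thbs1. With the mean log2 level of the stellate, endothelial and Kupffer markers as a covariate, they were -1.063 for Lamb1, 0.455 for Fn1, -1.073 for Tnc and -0.562 for Thbs1, with adjusted p between 0.0771 and 0.155, and 0 of all tested genes passed there too. Without WT MJ041 library 3 instead, 15 matrix genes passed, 3 higher and 12 lower, beside 13.5% of all tested genes in that fit. The count was 0 without any 1 of WT MJ041 library 1 or 2, WT vehicle library 1 or 3, KO MJ041 library 1 or 3 or any KO vehicle library. In those fits between 0% and 1.38% of all tested genes passed, and where 0% did, the count says nothing particular to the matrix genes. The count was 1 without KO MJ041 library 2, beside 1.07% of all tested genes, and 3 without WT vehicle library 2, beside 3.77%. Bgn, at 4.70, 4.74 and 12.7 CPM with MJ041 against 17.6, 14.6 and 17.6 CPM with vehicle, did not pass with edgeR but passed with DESeq2 (log2 fold change -1.172, adjusted p = 0.0111) and limma voom (-1.319, adjusted p = 0.0417). Sparc, at 19.0, 19.9 and 43.8 CPM with MJ041 against 40.7, 42.2 and 56.1 CPM with vehicle, did not pass with edgeR.

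**Figure D5:**
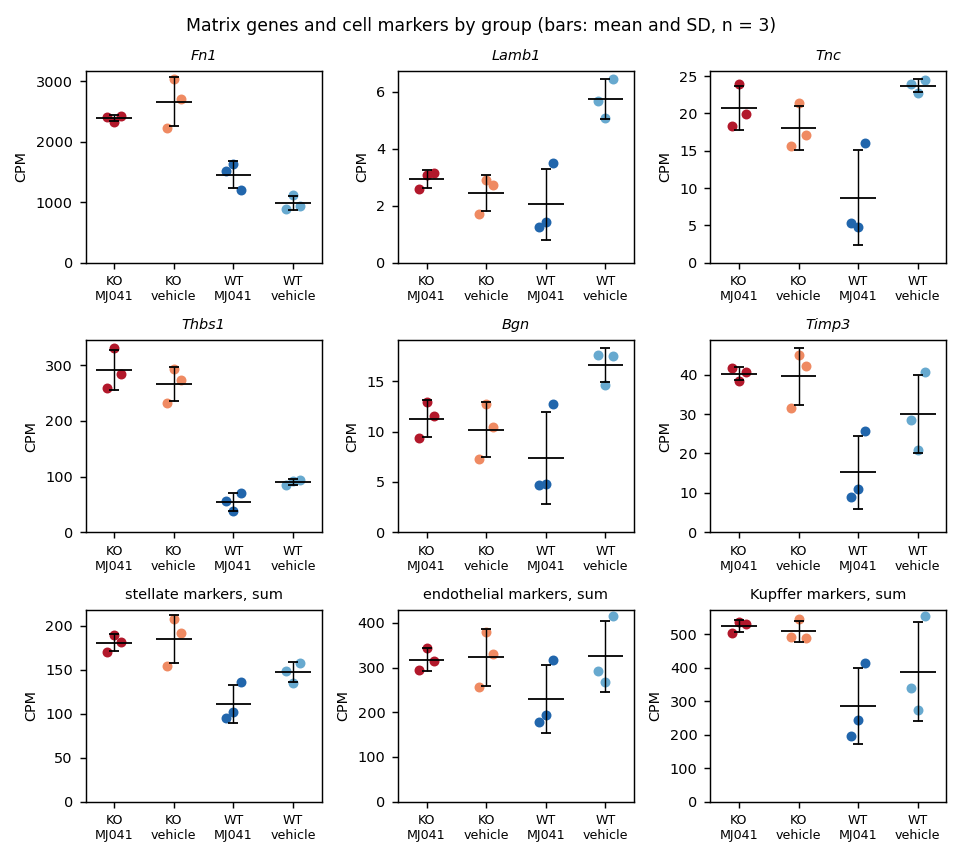
CPM of 6 matrix genes and the summed CPM of stellate, endothelial and Kupffer cell markers in the 4 groups; points are libraries, and the line and bar are the mean and SD of 3 libraries. In the WT MJ041 group, libraries 1 and 2 are low for Lamb1, Tnc, Bgn, Timp3 and the 3 marker sums, and library 3 lies closer to the vehicle libraries.

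In KO cells, 0 of the 35 genes differed between MJ041 and vehicle by edgeR, and 0% of all tested genes did. At an unadjusted p below 0.05 the count was 0 of the matrix genes and 2.77% of all tested genes. DESeq2 and limma voom called 0 matrix genes, beside 0.0067% and 0% of all tested genes in those fits. Vtn was at 59.1, 74.0 and 68.7 CPM in KO MJ041 libraries, against 53.6, 77.0 and 65.7 CPM in KO vehicle libraries, with a log2 fold change of 0.04. Fn1 was at 2415.8, 2337.2 and 2434.5 CPM, against 2234.5, 3043.2 and 2711.6 CPM, with a log2 fold change of -0.15. The groups overlapped for both genes. The interaction asks whether the log2 fold change with MJ041 in KO cells differs from the one in WT cells, and it was called for 0 of the 35 genes by edgeR and 0% of all tested genes, with 11 genes at an unadjusted p below 0.05 beside 13.3% of all tested genes. It was -0.72 for Fn1, 1.74 for Lamb1, 1.64 for Tnc and 0.86 for Thbs1 on the log2 scale. DESeq2 called the interaction for Fn1, Lamb1 and Thbs1, beside 1.71% of all tested genes in that fit. Without WT MJ041 libraries 1 and 2, and so with 1 library in that group, it was -0.447 for Fn1, 0.978 for Lamb1, 0.763 for Tnc and 0.501 for Thbs1 (adjusted p between 0.835 and 0.913). With the marker covariate it was -0.597 for Fn1, 1.265 for Lamb1, 1.202 for Tnc and 0.665 for Thbs1. The MJ041 responses share their vehicle libraries with the genotype comparison, so they are given side by side only.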

How the data were processed

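The values deposited by the authors are raw read counts for each Ensembl gene in 12 samples, with no normalization. Per the labels' protocols, total RNA was purified on columns and sequenced from stranded libraries. Trimmomatic 0.34, STAR 2.7.10b, featureCounts, FastQC, DESeq2 and the build mm39 are named in the submitters' processing notes; the strand setting of the counting is not given in the sources used here. Syn3 overlaps 21.3% of the exon length of Timp3 on the other strand. Without the strand setting, reads of these genes in that stretch cannot be told apart (Syn3 averaged 1.58 CPM and Timp3 31.3).

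Symbols were found for 52081 of 55414 identifiers. R 4.3.3, edgeR 4.0.16 (filterByExpr with a minimum count of 10, TMM, quasi-likelihood test), limma 3.58.1 and DESeq2 1.42.0 were used. All 12 libraries entered one model, with a coefficient for each group, with Benjamini-Hochberg adjustment over the 14919 tested genes and a threshold of 0.05. The fit was also run on simulated counts in which few genes changed, none of them at low levels. That check does not cover genes at low levels, the many genes that differ here, or libraries that shift together. Each SE was derived from the log2 fold change and its F statistic. Exon lengths and promoters came from GRCm38, which is not the build of the counts. Replicates of a group differed beyond sampling noise (chi-square over its degrees of freedom from 4.75 to 16.0), so none was treated as a repeat deposit of another; this does not show that they came from separate animals.

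The members and lists were chosen with earlier results of these data known. All members are named; of each pathway list the 3 genes with the smallest adjusted p in KO against WT with vehicle, and of each marker list the 2 most abundant, are named. Alternatives were other scaling, filters, tools, a replicate block, a marker covariate and left-out libraries.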

Additional observations from a re-analysis of the deposited data

How the results depend on the processing

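Over 21 alternatives, 3386 of 3602 values of matrix genes kept their side of the threshold. Values that did not pass either way were counted as kept whatever their sign, so changes of sign among them were not counted. Of the other values, 99 passed in the same direction that had not, 116 no longer passed and 1 passed with the opposite sign. That value was Col5a1 in KO against WT with MJ041, not called at 0.04, which was -0.813 (adjusted p = 0.037) against the 1 library left without WT MJ041 libraries 1 and 2, and 0.794 (adjusted p = 0.0203) without library 3, so it followed the libraries kept. The count for MJ041 in WT, 4 in the report, was 12 with no filter, 1 at a mean of at least 1 CPM and 7 with DESeq2. Of all tested genes in those fits, 5.52%, 2.09% and 6.5% were called. The count was 0 with only the groups compared or with the marker covariate, where 0% of all tested genes were called. Leaving out 1 library gave 0 to 15, beside 0% to 13.5% of all tested genes. The interaction count, 0 in the report, was 9 with no filter and 3 with DESeq2, beside 2.94% and 1.71% of all tested genes in those fits. With 1 library left out the interaction count was 0 to 12, beside 0% to 5.6% of all tested genes. Leaving out 1 library gave 16 to 22 for KO against WT with vehicle, beside 48.6% to 55.9% of all tested genes. For KO against WT with MJ041 it gave 17 to 24, beside 48.1% to 54.2%, and for MJ041 in KO always 0, beside 0%. Over all genes, MJ041 in WT gave 0 to 2059 calls, against 329.

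Same-numbered libraries had correlations of deviations between -0.0994 and 0.499 across groups, and other-numbered ones between -0.53 and 0.445. Between MJ041 and vehicle libraries of the same number they were 0.349, 0.458 and 0.039 in KO and -0.0103, 0.203 and 0.499 in WT. These values do not settle whether MJ041 and vehicle libraries of a number share a preparation, which the labels do not state. The main fit took no pairs. With a replicate block, shared by both genotypes, the counts were 20, 19, 6, 0 and 0 for KO against WT with vehicle, the same with MJ041, MJ041 in WT, MJ041 in KO and the interaction. The shares of all tested genes in that fit were 55.8%, 55.5%, 4.35%, 0% and 0%, in the same order. Genes below 1 CPM rest on few reads.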
